A study of Mus musculus with 12 samples.

Results

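Expression of 10 genes of the Krüppel-like factor (KLF) and FOXO families and their circle was examined in mouse lung group 2 innate lymphoid cells (ILC2s). They were chosen by name as factors tied to quiescence: *Klf2*, *Klf3*, *Klf4*, *Klf6*, *Klf7*, *Klf10*, *Klf13*, *Foxo1*, *Foxo3* and *Tsc22d3*. The choice was made with earlier results of these data known. All 10 were found among the 24346 gene symbols measured, and all 10 were among the 11395 that entered the tests, for which the mean over libraries had to reach 0.5 FPKM. KLF and FOXO proteins are transcription factors best known in lymphocytes for holding resting cells in quiescence, the state in which a cell neither grows nor divides. KLFs bind GC-rich and CACCC sequences through zinc fingers at their C-terminus and act as activators or repressors. FOXO proteins are held out of the nucleus when growth signals activate PI3K and AKT, and return to it when those signals cease. In ILC2s, the tissue lymphocytes that answer the alarmin IL-33 with type 2 cytokines, leaving the resting state goes with growth, division and cytokine release.

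The 12 RNA-seq libraries came from ILC2s sorted from mouse lung, 3 libraries in each of 4 groups. WT mice and mice lacking *Sema6d* (*Sema6d*-/-, here 6DKO) received PBS, the vehicle, or IL-33 by the nose for 3 days. The labels give C57BL/6, and the study's methods put all mice on the C57BL/6J background. The mice were 7 to 12 weeks old, and the *Sema6d* deletion was carried by every cell of the 6DKO animals rather than by ILC2s alone. The labels put IL-33 at 50 ng, and the study's methods give a higher dose. No source used here states whether a library was made from 1 animal or from several. P-values therefore rest on the spread between libraries, estimated for each gene over all 4 groups in the main fit.

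*Sema6d* transcripts were still counted in the 6DKO libraries. Under PBS, the WT libraries had *Sema6d* at 27.6, 46.1 and 37.5 FPKM, and the 6DKO libraries at 29.0, 22.9 and 19.8 FPKM. Under IL-33, the WT libraries had it at 19.7, 35.5 and 28.7 FPKM, and the 6DKO libraries at 15.4, 13.6 and 13.8 FPKM. The genotypes overlapped under PBS and did not overlap under IL-33, where the log2 fold change was −0.89 (SE 0.32, adjusted p = 1, limma). A value over the whole gene does not separate transcripts with and without a deleted part, so this is only a partial check of the labels.

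The PBS libraries listed more genes at 0 and varied more than the IL-33 libraries. FPKM, fragment counts scaled by transcript length and by library size, carries no read totals, but the steps between values of weakly expressed genes gave relative depths of 0.531 to 0.717 for the PBS libraries and 0.695 to 1 for the IL-33 libraries, with WT IL-33 replicate 1 set to 1. Of 3617 genes with a mean of 5 to 20 FPKM, each PBS library listed 169 to 641 at 0 and each IL-33 library 25 to 50, so a value of 0 is given here only as listed. The median SD of log2(FPKM + 1) within a group was 0.66 in WT PBS, 0.70 in 6DKO PBS, 0.29 in WT IL-33 and 0.28 in 6DKO IL-33. The tests use limma with 1 estimate of the spread per gene, shared by all 4 groups. Of the 10 genes, *Klf2*, *Klf3*, *Klf4* and *Klf10* had a larger SE between the PBS groups in this fit than with the PBS libraries alone, and the others a smaller SE. Adjusted p-values from a fit of only the groups compared, chosen after seeing the data, are given where they end a call. That fit has fewer libraries, and in simulated data it too called some unchanged genes.

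ILC2 markers were examined first. *Id2*, the most abundant of them, was between 1726 and 3238 FPKM, and *Il1rl1*, which encodes the IL-33 receptor, between 117 and 269 FPKM. Of 13 ILC2 markers, 1 was higher and 1 lower under IL-33 in WT, and 0 were higher and 2 lower in 6DKO (limma). At an unadjusted p under 0.05, 2 were higher and 4 lower in each genotype. *Klrg1*, an inhibitory receptor, rose in WT (adjusted p = 0.0318, and 0.146 with only the groups compared, limma), and *Il5*, a type 2 cytokine, fell in 6DKO by 1.11 (adjusted p = 0.0455, and 0.0943 with only the groups compared). *Il13*, another type 2 cytokine, did not pass the test and did not fall. Its WT libraries had 5.8, 1.1 and 7.6 FPKM under PBS, against 18.4, 37.2 and 37.4 FPKM under IL-33. In 6DKO it was at 0.436, 8.83 and 26.0 FPKM under PBS and at 29.1, 19.1 and 26.4 FPKM under IL-33, with overlap. *Il2ra*, the IL-2 receptor alpha chain, fell in both genotypes (log2 fold change −2.16 in WT and −1.57 in 6DKO, adjusted p = 0.000665 and 0.00666, limma).

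In 3 of the 6DKO libraries, markers of other cells were higher than elsewhere. In 6DKO PBS replicate 2, the 4 NK cell markers summed to 69.8 FPKM, of which *Ncr1* gave 58.9, against sums of 0 to 2.64 FPKM in every other library. The 8 macrophage and monocyte markers summed to 187 FPKM in 6DKO PBS replicate 2, 420 FPKM in 6DKO IL-33 replicate 2 and 143 FPKM in 6DKO IL-33 replicate 3, against at most 17.1 FPKM elsewhere. *Chil3*, their most abundant gene, gave 394 FPKM of the sum in 6DKO IL-33 replicate 2, where *Lyz2* gave 22.2 and *Cd68* 4.15 FPKM and *Adgre1*, *Itgam*, *Mrc1* and *Marco* were listed at 0. *Csf1r* stayed below 1 FPKM in all libraries. The 5 epithelial markers summed to 98.5 FPKM in 6DKO IL-33 replicate 3, where *Sftpc* was at 97.2 FPKM, to 25.4 to 71.8 FPKM in the PBS libraries, with 6DKO PBS replicate 2 the highest of these, and to 2.75 to 20.2 FPKM in the other IL-33 libraries. *Epcam* was the most abundant of them over the 12 libraries. The 6 endothelial markers summed to 1.32 to 23.1 FPKM, with *Pecam1* the most abundant over the libraries and *Cldn5* at 12.7 FPKM in 6DKO PBS replicate 2, and *Cdh5*, *Tek* and *Vwf* stayed below 1 FPKM in every library. Values without these libraries are given where they change a call among the 10 genes. By the study's methods, the sorted cells were negative for a set of lineage antibodies, among them antibodies to NK cell and macrophage surface proteins. In sorted bulk samples, fewer cells of a type and less RNA per cell cannot be told apart.

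FPKM is scaled by length, so the levels of the 10 genes can be compared. In every group, *Klf6* had the highest mean and *Tsc22d3* the next, from 293 to 483 FPKM for *Klf6* and 263 to 433 FPKM for *Tsc22d3*, and their libraries overlapped in each group. *Foxo3* was lowest in all groups and *Foxo1* next to it. Between these, the order changed with treatment. *Klf3* came directly after them in 6DKO PBS, and its values overlapped those of *Klf4* in both PBS groups. Under IL-33 it stood below *Klf4* in both genotypes, without overlap.

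**Figure D1:**
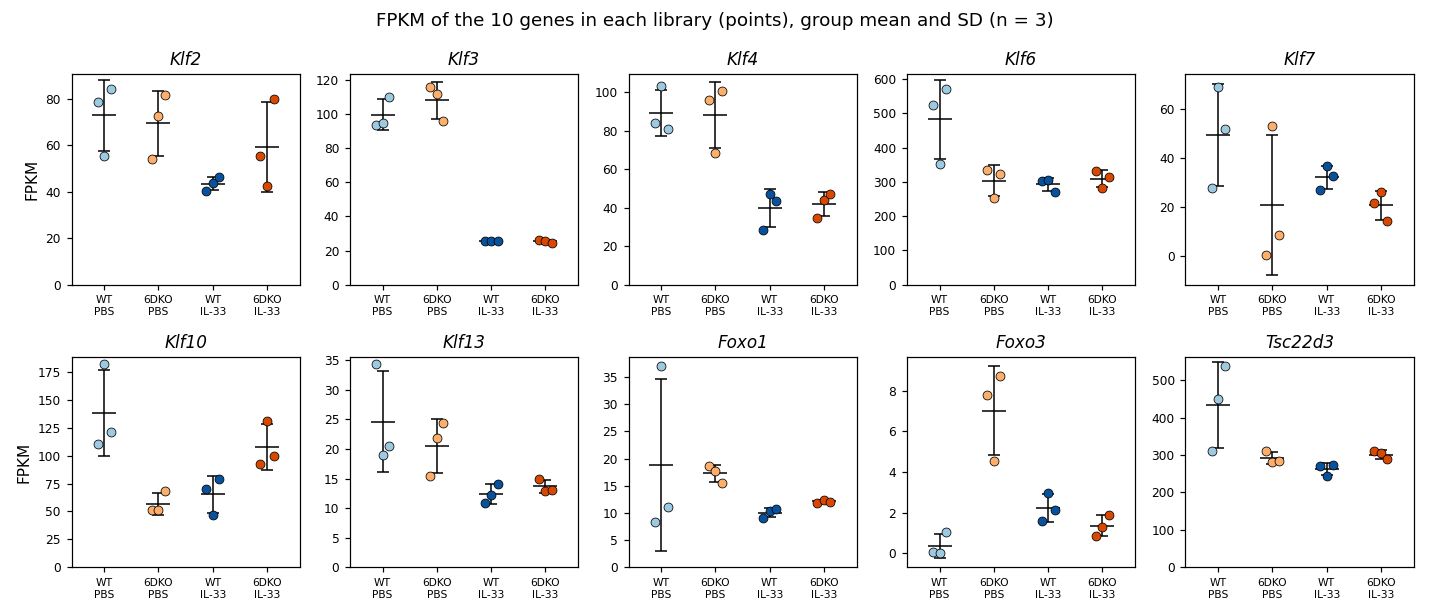
FPKM of each of the 10 genes (vertical axes, each with its own scale) in the 12 libraries, by group (horizontal axes). Points are libraries, horizontal lines are means and bars are SD (n = 3). *Klf3* lies at 24.3 to 26.0 FPKM in the 6 IL-33 libraries and at 93.5 to 116 FPKM in the 6 PBS libraries.

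The first comparison asked how the 10 genes differed between IL-33 and PBS in WT ILC2s. Of the 10, 3 fell and 0 rose at an adjusted p under 0.05 (limma, Benjamini-Hochberg over all genes tested), beside 1.61% of all tested genes lower and 2.66% higher. At an unadjusted p under 0.05, 7 were lower and 1 higher, beside 2011 of the 11395 genes in either direction. In 6DKO ILC2s, 1 of the 10 fell and 0 rose, beside 1.1% of all tested genes lower and 1.75% higher, and at an unadjusted p under 0.05, 3 were lower and 1 higher, beside 1731 genes. The median log2 fold change of the 10 was −0.70 in WT and −0.37 in 6DKO, and over all tested genes it was 0.16 and 0.14. Quantile normalization placed the latter medians at −0.04 and −0.02. All 3 IL-33 libraries were below all 3 PBS libraries for 7 of the 10 genes in WT, beside 9.23% of all tested genes, and for 5 of the 10 in 6DKO, beside 8.75%. Because the 10 were chosen with earlier results known, these shares describe the genes and do not test them as a set.

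*Klf3*, a repressor that recruits the corepressor CtBP, fell in both genotypes. WT libraries had 93.5, 94.8 and 110 FPKM under PBS, against 25.6, 25.7 and 25.6 FPKM under IL-33. 6DKO libraries had 116, 112 and 95.8 FPKM under PBS, against 26.0, 25.8 and 24.3 FPKM under IL-33. The treatments were far apart in both genotypes, and the IL-33 libraries lay close together. The mean under PBS was 3.87 times that under IL-33 in WT and 4.25 times in 6DKO. On the log2(FPKM + 1) scale, which understates changes of low genes, *Klf3* fell by 1.91 (SE 0.20, adjusted p = 0.000313, limma) in WT and by 2.04 (SE 0.20, adjusted p = 0.00031) in 6DKO. The fit of only the groups compared gave adjusted p = 0.0125 and 0.012, the highest among the 12 alternatives in each genotype, all of which kept the call.

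*Klf4*, which restrains division in many cell types and is itself induced rapidly by stimuli, was 84.0, 103 and 80.8 FPKM in the libraries of WT PBS, against 28.6, 47.2 and 43.2 FPKM in those of WT IL-33. In 6DKO, it was at 95.8, 68.5 and 100 FPKM under PBS and at 34.8, 44.1 and 47.0 FPKM under IL-33. Every IL-33 library was below every PBS library. *Klf4* fell by 1.17 (SE 0.26, adjusted p = 0.0248, limma) in WT, and the log2 fold change in 6DKO was −1.05 (SE 0.26, adjusted p = 0.0543). The WT call held in 7 of 12 alternatives. It was lost with only the groups compared (adjusted p = 0.0555), without WT PBS replicate 2 (0.0581) and without WT IL-33 replicate 1 (0.106) or 3 (0.066), and with array weights (0.0962). Without 6DKO PBS replicate 2, the library with high NK cell markers, the 6DKO change was −1.22 with an adjusted p of 0.0298, and over the alternatives the adjusted p in 6DKO ranged from 0.0298 to 0.208. It was also under the threshold with no filter (0.049), with a pseudocount of 0.1 (0.0496), and without WT IL-33 replicate 1 (0.0481) or WT PBS replicate 2 (0.046).

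*Klf2*, which keeps naive T cells quiescent and maintains their trafficking receptors, was 78.8, 55.3 and 84.2 FPKM in the libraries of WT PBS, against 40.4, 43.7 and 46.4 FPKM in those of WT IL-33. In 6DKO, it was at 54.2, 72.4 and 81.6 FPKM under PBS and at 55.4, 42.2 and 80.1 FPKM under IL-33. The treatments were apart in WT and overlapped in 6DKO. Neither change passed the test (log2 fold change −0.71 in WT and −0.25 in 6DKO, both SE 0.28, adjusted p = 0.202 and 0.728, limma), and the interaction, which tests whether the genotypes differ in their change, gave 0.46 (SE 0.39, adjusted p = 0.897). The 6DKO change was −0.04 without 6DKO IL-33 replicate 2 and −0.49 without 6DKO IL-33 replicate 3, and the interaction was 0.67 and 0.22 without the same libraries.

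*Klf6*, a widely expressed factor of the immediate early kind, was at 525, 353 and 570 FPKM in WT PBS libraries and between 254 and 334 FPKM in every 6DKO and IL-33 library. The 3 WT PBS libraries were therefore the highest of the 12. The log2 fold change under IL-33 was −0.69 in WT and 0.03 in 6DKO (both SE 0.19, adjusted p = 0.0639 and 0.967, limma), and the adjusted p in WT ranged from 0.0109, without WT PBS replicate 2, to 0.219, without WT IL-33 replicate 3. It was also under the threshold with array weights (0.0419) and without 6DKO PBS replicate 2 (0.0493), and was 0.142 with only the groups compared. *Tsc22d3*, which encodes the glucocorticoid-induced leucine zipper GILZ and is a FOXO target in lymphocytes, had a similar arrangement, with 311, 449 and 539 FPKM in WT PBS and 245 to 311 FPKM in all other libraries. WT PBS replicate 1 was level with the highest 6DKO PBS library. Its log2 fold change under IL-33 was −0.68 in WT and 0.04 in 6DKO (both SE 0.18, adjusted p = 0.0567 and 0.95), and the adjusted p in WT ranged from 0.00632, without WT PBS replicate 1, to 0.191, without WT IL-33 replicate 2. It was also under the threshold with array weights (0.0323) and quantile normalization (0.049), and was 0.167 with only the groups compared.

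*Klf10*, a repressor first described as induced by TGF-β, was 111, 182 and 121 FPKM in the libraries of WT PBS, against 69.7, 46.9 and 79.3 FPKM in those of WT IL-33. In 6DKO it was at 51.1, 51.7 and 68.3 FPKM under PBS and at 92.5, 131 and 99.6 FPKM under IL-33. All WT libraries were lower with IL-33 than with PBS, and all 6DKO libraries were higher. *Klf10* fell by 1.07 in WT (SE 0.27, adjusted p = 0.0467, limma), a call kept in 3 of 12 alternatives with adjusted p from 0.0415 to 0.183. It was lost with only the groups compared (0.111), array weights (0.125), the replicate block (0.0811) and no filter (0.0562), and without WT PBS replicate 2 (0.11) or 3 (0.0593) or WT IL-33 replicate 1 (0.111), 2 (0.183) or 3 (0.0696). Leaving out a 6DKO IL-33 library, replicate 1 (0.0699), 2 (0.063) or 3 (0.0726), also ended it. The log2 fold change in 6DKO was 0.90 (SE 0.27, adjusted p = 0.113).

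*Klf13*, which drives late expression of the chemokine RANTES in T cells, was 34.4, 19.1 and 20.4 FPKM in the libraries of WT PBS, against 10.8, 12.2 and 14.1 FPKM in those of WT IL-33. In 6DKO it was at 15.4, 21.8 and 24.3 FPKM under PBS and at 14.9, 12.9 and 13.1 FPKM under IL-33. No IL-33 library reached a PBS library of its genotype, but the changes did not pass the test (log2 fold change −0.90 and −0.53, both SE 0.34, adjusted p = 0.18 and 0.499, limma). *Klf7*, studied mainly in neurons and fat cells, was 27.7, 69.2 and 51.8 FPKM in the libraries of WT PBS, against 0.129, 53.3 and 8.46 FPKM in those of 6DKO PBS. It was 14.2 to 36.5 FPKM in libraries given IL-33. The 6DKO PBS libraries were spread from near 0 to the level of WT, and neither treatment effect passed the test (adjusted p = 0.851 in WT and 0.581 in 6DKO).

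*Foxo1*, the main FOXO factor of lymphocytes and an activator of *Il7r*, was 8.32, 37.1 and 11.1 FPKM in the libraries of WT PBS, against 9.05, 10.4 and 10.7 FPKM in those of WT IL-33. In 6DKO it was at 18.6, 17.8 and 15.5 FPKM under PBS and at 11.8, 12.4 and 12.1 FPKM under IL-33. The high WT PBS mean was that of replicate 2, and the 6DKO treatments did not overlap. Neither change passed the test (log2 fold change −0.56 in WT and −0.48 in 6DKO, both SE 0.47, adjusted p = 0.6 and 0.69, limma). The WT value was 0.05 without WT PBS replicate 2 and −0.96 without WT PBS replicate 1, so its direction depends on a single library. *Il7r* itself was between 280 and 384 FPKM throughout.

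*Foxo3*, the second FOXO factor of lymphocytes, was the least abundant of the 10. It was 0.0617, 0 and 1.03 FPKM in the libraries of WT PBS, against 1.57, 2.98 and 2.14 FPKM in those of WT IL-33. In 6DKO it was at 7.80, 4.56 and 8.72 FPKM under PBS and at 0.856, 1.32 and 1.90 FPKM under IL-33. The 6DKO PBS libraries were the highest of all, and WT PBS replicate 3 lay above 6DKO IL-33 replicate 1. The log2 fold change under IL-33 was 1.30 in WT and −1.75 in 6DKO (both SE 0.48, adjusted p = 0.171 and 0.0813, limma). The WT value depended on scale, at 0.45 with quantile normalization and 3.10 with a pseudocount of 0.1. In 6DKO, 2 of 12 alternatives passed, quantile normalization (−2.21, adjusted p = 0.0251) and without 6DKO PBS replicate 2 (−2.00, adjusted p = 0.0417), over a range of adjusted p from 0.0251 to 0.28.

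**Figure D2:**
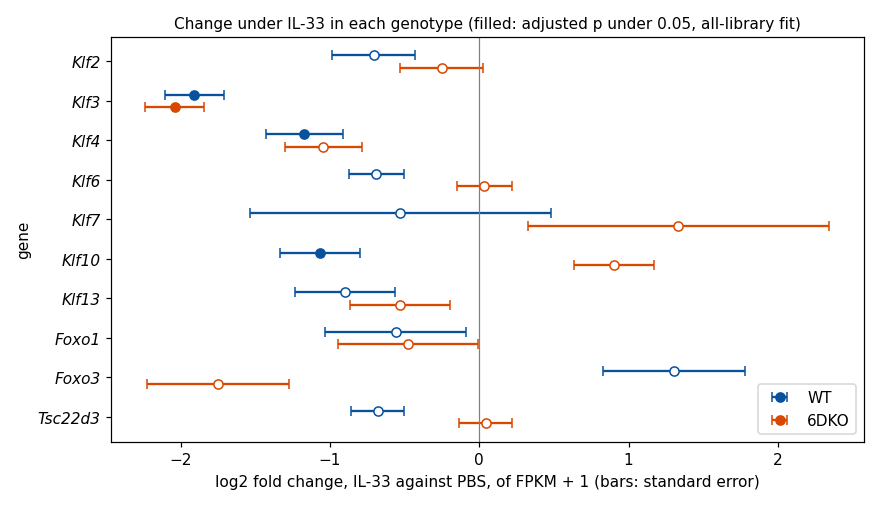
Log2 fold change of FPKM + 1 between IL-33 and PBS (horizontal axis) for each gene (vertical axis), in WT and 6DKO ILC2s. Points are estimates of the fit to all 12 libraries, bars are standard errors, and filled points passed the adjusted p threshold of 0.05. *Klf3* is filled in both genotypes, at −1.91 and −2.04.

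Between the genotypes under PBS, 1 of the 10 genes passed the test, beside 0.579% of all tested genes. At an unadjusted p under 0.05, 1 was higher and 4 were lower, beside 1475 genes in either direction. The gene was *Foxo3* (log2 fold change 2.60, SE 0.48, adjusted p = 0.0358, limma), the highest of the 10. The size depended on scale, at 4.71 with a pseudocount of 0.1 and 2.09 with quantile normalization. With only the PBS libraries in the fit, the adjusted p was 0.717 (SE 0.54), and the number of genes passing was 1 in place of 66. In simulated data with each gene's own spread in each group, both fits called more unchanged genes in this comparison than they called genes here. The call held in 4 of 12 alternatives (adjusted p 0.0158 to 0.717). It was lost with each change of the fit or scale tried, without WT PBS replicate 1 (0.0601) or 2 (0.0617), and without any of the 6 IL-33 libraries, for example 6DKO IL-33 replicate 2 (0.0768) or 3 (0.0702). The lowest was *Klf7*, at −2.51 (SE 1.01, adjusted p = 0.327). Without 6DKO PBS replicate 2 it was −3.86 (adjusted p = 0.0427, in a range of 0.0427 to 0.939), and without 6DKO PBS replicate 1 it was −1.06. *Klf10* and *Klf6* were lower in all 6DKO PBS than in all WT PBS libraries, with log2 fold changes of −1.24 (SE 0.27, adjusted p = 0.0776) and −0.65 (SE 0.19, adjusted p = 0.209). The share of all tested genes without overlap between these groups was not counted. Without WT PBS replicate 2, *Klf6* passed (adjusted p 0.0362, in a range of 0.0362 to 0.847), and without WT PBS replicate 1, *Tsc22d3* did (0.0396, in a range of 0.0396 to 0.847).

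Between the genotypes under IL-33, 0 of the 10 passed the test (limma), beside 0.00878% of all tested genes, which is 1 gene. At an unadjusted p under 0.05, 1 of the 10 was higher and 0 were lower, beside 209 genes in either direction. *Klf10*, *Foxo1* and *Tsc22d3* were higher in all 6DKO IL-33 than in all WT IL-33 libraries, and *Klf7* was lower. The share of all tested genes without overlap between these groups was not counted. *Klf10* had the highest log2 fold change, 0.73 (SE 0.27, adjusted p = 1), and *Klf7* the lowest, −0.64 (SE 1.01, adjusted p = 1). Without 6DKO IL-33 replicate 3, *Klf7* was at −0.41 and *Foxo3* lower, at −0.62. Without 6DKO IL-33 replicate 2, *Klf2* (0.61) was above *Klf10* (0.58). The spread used in this test includes that of the more variable PBS libraries. With only the IL-33 libraries in the fit, the adjusted p was 0.488 for *Klf10* and 0.525 for *Klf7* (limma). In the test of whether IL-33 acted differently in the genotypes (the interaction), 0 of the 10 passed, beside 0.0176% of all tested genes, and 4 had an unadjusted p under 0.05, beside 635 genes. *Klf10* had the highest interaction, 1.97 (SE 0.38, adjusted p = 0.219), and *Foxo3* the lowest, −3.05 (SE 0.67, adjusted p = 0.314).

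Other members of the families were read in the same way. Of the 10 other KLF genes, *Klf1*, *Klf14*, *Klf15* and *Klf17* were listed at 0 in all libraries, and 6 entered the tests. Of these, 2 fell and 0 rose in WT, and 1 fell and 0 rose in 6DKO. *Klf9*, a KLF induced by glucocorticoids, was 18.3 to 34.5 FPKM in libraries given PBS and 3.08 to 5.12 FPKM in libraries given IL-33. It fell by 2.40 (SE 0.38, adjusted p = 0.00455, limma) in WT and by 2.02 (SE 0.38, adjusted p = 0.0167) in 6DKO, and both calls held with only the groups compared (adjusted p = 0.0323 and 0.0408). *Klf5*, the most abundant of this list, fell by 1.72 (SE 0.29, adjusted p = 0.00615) in WT, and its 6DKO change was −0.83 (adjusted p = 0.179). Of 4 tested genes among *Foxo4*, *Foxo6* and the TSC22 family, 0 passed the test in either genotype, and 0 had an unadjusted p under 0.05. *Tsc22d4*, the most abundant, was between 17.7 and 29.6 FPKM.

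Genes that act on FOXO proteins came next. Of 16 tested regulators in the PI3K, AKT and SGK pathway, 1 fell and 0 rose in WT, where 3 were lower and 1 higher at an unadjusted p under 0.05, and 0 passed in 6DKO, where 2 were lower and 0 higher at an unadjusted p under 0.05 (limma). The gene that fell was *Sgk1*, a kinase that phosphorylates FOXO proteins, by 1.42 (SE 0.34, adjusted p = 0.0389, and 0.0948 with only the groups compared). *Ywhaz*, a 14-3-3 protein that holds phosphorylated FOXO in the cytoplasm, was the most abundant, between 472 and 682 FPKM. Of 20 FOXO target genes, 1 fell and 0 rose in each genotype. It was *Gadd45b*, a stress response gene and the most abundant of the list, which fell by 1.06 in WT and by 0.95 in 6DKO (both SE 0.11, adjusted p = 0.000312 and 0.000828). The median log2 fold change of the list was −0.22 in WT and −0.03 in 6DKO.

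Of 4 tested trafficking genes known as KLF2 targets in T cells, 0 passed the test in WT, with 0 at an unadjusted p under 0.05 (limma), and 1 rose in 6DKO. It was *Ccr7*, a chemokine receptor for lymph node homing, with a log2 fold change of 4.76 (SE 0.95, adjusted p = 0.0212, and 0.126 with only the groups compared). *Ccr7* was at 0.0845, 0 and 18.4 FPKM in 6DKO PBS and at 63.5, 56.6 and 112 FPKM in 6DKO IL-33 libraries. *Itgb7*, the most abundant, was between 550 and 843 FPKM.

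Of 13 glucocorticoid-induced genes, the class to which *Tsc22d3* belongs, 5 fell and 1 rose in WT, and 1 fell and 1 rose in 6DKO. *Errfi1*, a feedback inhibitor of EGF receptor signalling, fell by 2.42 in WT (SE 0.46, adjusted p = 0.0117, limma), followed by *Klf9* and *Sgk1*. *Klf9* and *Sgk1* are also counted in lists above, and *Dusp1*, which fell in WT too, in the immediate early list below. *Mt2*, a metallothionein, was listed at 0 in all PBS libraries and was 11.9 to 39.3 FPKM in libraries given IL-33 (adjusted p = 0.000325 in WT and 0.000786 in 6DKO). *Nfkbia*, the NF-κB inhibitor and most abundant of the list, fell by 1.12 in WT (SE 0.22, adjusted p = 0.0136). The list's genes changed in both directions, and its medians were −0.64 in WT and −0.34 in 6DKO.

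Of 13 tested quiescence-associated genes, 3 fell and 1 rose in WT, and 2 fell and 0 rose in 6DKO (limma; at an unadjusted p under 0.05, 2 were higher and 3 lower in WT, and 2 higher and 2 lower in 6DKO). *Tob2*, an antiproliferative protein, fell by 1.07 in WT and by 1.14 in 6DKO (both SE 0.20, adjusted p = 0.012 and 0.0115). *Btg2*, of the same family, fell by 0.72 and 0.74 (both SE 0.16, adjusted p = 0.0261 and 0.0315), and *Btg1*, the most abundant of the list, by 0.46 in WT (SE 0.11, adjusted p = 0.0357). *Slfn2*, whose loss deprives T cells of quiescence, rose in WT (log2 fold change 1.18, SE 0.28, adjusted p = 0.0343). With only the groups compared, *Tob2* kept its calls (adjusted p = 0.0273 and 0.0331), while *Btg2* (0.0598 and 0.054), *Btg1* (0.0726) and *Slfn2* (0.14) did not. *Btg2* is also counted among the immediate early and stress genes below.

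Cell cycle genes mark division, the opposite of quiescence. Of 25, 7 rose and 0 fell in WT, and 1 rose and 0 fell in 6DKO (limma; at an unadjusted p under 0.05, 14 were higher and 2 lower in WT, and 10 higher and 2 lower in 6DKO), with median log2 fold changes of 1.35 and 1.30. *Ccnb1*, the mitotic cyclin B1, was listed at 0 in all 6 PBS libraries and was 2.52 to 9.58 FPKM in libraries given IL-33 (adjusted p = 0.0013 in WT and 0.0112 in 6DKO). *Birc5*, which encodes survivin, and *Top2a*, a topoisomerase of dividing cells, rose in WT (log2 fold changes of 4.22 and 3.21, adjusted p = 0.00777 and 0.0351, the latter 0.0502 with only the groups compared). *Cdk4*, the most abundant, was between 18.2 and 144 FPKM. Of the 7 genes that rose in WT, *Mcm6* had a WT PBS mean of 23.8 FPKM and the others of 0 to 1.2 FPKM. The part of the zeros in the PBS libraries in these changes was not tested. *Mcm7* and *Ccnd2* were lower in every IL-33 library than in every PBS library of its genotype. In WT, the mean went from 31.6 to 16.8 FPKM for *Mcm7* and from 83.8 to 62.1 FPKM for *Ccnd2*.

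Immediate early genes, which many stimuli induce within minutes, are known to include KLFs. Of 16 immediate early and stress genes, 12 fell in WT and 9 in 6DKO, and 0 rose (limma; at an unadjusted p under 0.05, 0 were higher in either genotype, and 12 were lower in WT and 11 in 6DKO), with median log2 fold changes of −1.30 and −0.85. Their summed level was 12650 to 20600 FPKM in the PBS libraries and 6729 to 8677 FPKM in the IL-33 libraries. *Junb*, the most abundant, fell by 0.62 in WT (SE 0.13, adjusted p = 0.0203, and 0.0626 with only the groups compared). *Atf3*, a stress-induced factor, fell by 2.53 and 1.37 (both SE 0.26, adjusted p = 0.000313 and 0.0166), and *Zfp36*, which destabilizes cytokine mRNA, by 2.04 and 1.05 (both SE 0.22, adjusted p = 0.000432 and 0.0269, the latter 0.107 with only the groups compared). *Fos*, a subunit of AP-1, fell by 1.72 in WT and by 0.85 in 6DKO (both SE 0.15, adjusted p = 8.03e-05 and 0.0101). *Egr1* and *Nr4a1*, early factors of antigen receptor signalling in T cells, also fell in both genotypes, *Egr1* by 1.37 in WT and 1.60 in 6DKO and *Nr4a1* by 1.27 and 1.40. Under PBS, *Jun* was lower in 6DKO than in WT (log2 fold change −0.94, adjusted p = 0.0363, and 0.717 with only the groups compared). At an unadjusted p under 0.05 (limma), 6 of the 16 were lower and 1 higher there, beside 1475 of all tested genes in either direction. For the interaction, 6 of the 16 were higher and 0 lower at that threshold, beside 635 genes. The part of this shared level in the changes of the KLF genes was not tested.

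Among markers of other cells, *Cd79b* of the B cell list rose in WT, *Cd68* of the macrophage and monocyte list rose in 6DKO, *Cpa3* of the mast cell and basophil list fell in WT by 1.54 (adjusted p = 0.0376, limma), and *Epcam* of the epithelial list fell in 6DKO by 3.73 (adjusted p = 0.0185, and 0.106 with only the groups compared). The T cell markers summed to 190 to 483 FPKM, of which *Cd3g* gave 190 to 480 FPKM, while *Cd3e* and *Cd3d* stayed below 10 FPKM and *Cd4*, *Cd8a*, *Cd8b1* and *Cd5* stayed below 1 FPKM. The B cell markers summed to 0 to 26.9 FPKM, the mast cell and basophil markers to 17.8 to 89.3 FPKM, the eosinophil markers to at most 1.99 FPKM, the neutrophil markers to at most 3.79 FPKM and the mesenchymal markers to at most 4.51 FPKM. *Ccr3*, *Retnlg* and *Col3a1* were the most abundant of the last 3 lists. The part of other cells in the results was not tested.

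The genes most like each of the 10 were found among tested genes whose mean reached 5 FPKM, by the root mean square (RMS) difference of centred log2(FPKM + 1) over the 12 libraries, as a description with no test. *Klf3* was closest to *Tmem176a* (RMS difference 0.16), *Tmem176b* (0.17), a neighbouring pair of membrane protein genes, and *Bambi* (0.23), a decoy receptor of TGF-β signalling. *Tmem176a* was 602 to 917 FPKM in libraries given PBS and 182 to 200 FPKM in libraries given IL-33. *Klf4* was closest to *Nr4a3* (0.17), *Gadd45b* (0.18) and *Cd300a* (0.18). *Klf2* was closest to *H2-Q6* (0.16), *Itpr2* (0.21) and *Inpp5d* (0.22), the last of which encodes the phosphatase SHIP1.

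For *Klf6* the closest were *Sfr1* (0.16), *Ablim1* (0.17) and *Atf4* (0.19), and for *Tsc22d3* they were *Gm10094* (0.17), *Pttg1ip* (0.18) and *Usp47* (0.19). For *Klf13* they were *6820431F20Rik* (0.20), *I730030J21Rik* (0.21) and *Prmt1* (0.21), and for *Foxo1* they were *Smim7* (0.25), *Fam189b* (0.27) and *Srsf4* (0.28). For *Klf10* they were *Lsm8* (0.34), *Gadd45g* (0.34) and *Sptlc1* (0.36). *Klf7* was nearest to *Edc4* (0.54), *Dkc1* (0.54) and *Cldnd1* (0.55), which shared its low values in 6DKO PBS replicates 1 and 3. *Edc4* and *Dkc1* were listed at 0 in 6DKO PBS replicate 1. *Foxo3* was below the minimum mean.

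The 10 genes lie on 10 chromosomes. In the GENCODE vM21 annotation of GRCm38, *Klf2* is at chr8:72319033-72321656, *Klf3* at chr5:64803388-64832901, *Klf4* at chr4:55527143-55532466 and *Klf10* at chr15:38291463-38300706. *Foxo1* is at chr3:52268336-52353221, *Foxo3* at chr10:42181841-42276755 and *Tsc22d3* at chrX:140539528-140600659. *Klf6* is at chr13:5861482-5870394, *Klf7* at chr1:64029447-64122282 and *Klf13* at chr7:63886351-63938915. Genes on the opposite strand overlap *Klf3*, *Klf7*, *Klf13* and *Foxo1*, and genes on the same strand overlap *Klf3*, *Klf7* and *Foxo1*. The study's methods name a stranded library kit, and the labels give another kit. Whether reads were counted by strand is not given in the sources used here. Reads of these pairs may therefore have been joined, and the values of these 4 are uncertain to that extent.

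The promoters of *Klf3* and *Klf4* are shown with the sequences that KLF proteins themselves bind. Both genes lay lower under IL-33 in every library of both genotypes and passed the test in WT, while *Klf13* lay lower too and passed in neither. RefSeq promoters (GRCm38.p6) were found for 9 of the 10 genes, and *Klf10* had none in the table. In the 250 bases before each start, 2 motifs of KLF binding were searched on both strands, the GC box GGGCGG and the CACCC box CACCC, and 1 of FOXO binding, TGTTTAC. Of 32544 promoters of the same length, 33% held the GC box, 52.1% the CACCC box and 3.17% the FOXO motif. The GC box was found in 9 of the 9 genes, the CACCC box in 5 and the FOXO motif in 0, counting a gene if any of its promoters matched. Of their 11 promoters, 3 of them of *Tsc22d3*, 10 held the GC box, 6 the CACCC box and 0 the FOXO motif. *Klf3* held 6 GC boxes and 5 CACCC boxes, and *Klf4* held 4 GC boxes and 0 CACCC boxes. Capitals mark the matches on either strand, and neighbouring matches can share bases. For *Klf3* the 117 bases before its GENCODE start are printed (chr5:64803271-64803387, plus strand), which hold only some of the matches counted in its 250 bases, and for *Klf4* all 250 (chr4:55532476-55532725, minus strand). A match is a description of the letters and no evidence of binding.
Klf3: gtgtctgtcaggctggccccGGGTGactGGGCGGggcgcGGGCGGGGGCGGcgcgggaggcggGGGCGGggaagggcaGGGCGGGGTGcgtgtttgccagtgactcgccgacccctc
Klf4: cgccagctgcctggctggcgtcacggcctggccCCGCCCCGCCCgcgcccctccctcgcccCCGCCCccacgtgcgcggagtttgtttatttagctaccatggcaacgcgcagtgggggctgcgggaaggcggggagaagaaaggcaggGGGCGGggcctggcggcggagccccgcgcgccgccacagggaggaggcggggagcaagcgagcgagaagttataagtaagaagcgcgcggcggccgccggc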

How the data were processed

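RNA-seq was analysed in 12 libraries of sorted mouse lung ILC2s, grouped by the genotype and treatment in their labels. The authors mapped 75-base reads to mm10 and deposited FPKM values per gene; the submitters' processing notes name TopHat2 2.1.1, Bowtie2 and Cuffdiff 2.2.1, and the study's methods name another TopHat version, Cuffnorm in place of Cuffdiff, and another library kit than the labels. No depth is stored in FPKM, so relative depth came from genes below 1 FPKM, a method tested on simulated data. No 2 libraries were identical (0 pairs).

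Values were tested as log2(FPKM + 1) with limma 3.58.1 in R 4.3.3 (lmFit, eBayes with a trend; 8 residual degrees of freedom), with the means of the 4 groups, for genes whose mean reached 0.5 FPKM. P-values are adjusted by Benjamini-Hochberg over 11395 genes, and calls are at an adjusted p under 0.05. In simulated data with the same spread in all groups, the test called almost no unchanged gene. With each group's median spread, it called fewer unchanged genes between the PBS groups than it called genes in the data. With each gene's own spread in each group, it called more unchanged genes there than genes in the data. Why these simulations differ was not tested, and calls between those groups are not reliable. A fit of only the groups compared was added after seeing the data. With each gene's own spread, it called fewer unchanged genes between the PBS groups, but also more than it called in the data. The members and lists were chosen with earlier results of these data known. Named were all 10 members; the highest, lowest and called member for genotype contrasts and the interaction; per list up to 3 higher and 3 lower called genes and the most abundant gene, with *Il7r*, *Il1rl1* and the markers that stand out in single libraries added after their values were seen; and the 3 genes most like each member. *Il13*, *Mcm6*, *Mcm7*, *Ccnd2* and *Dusp1* were also named after their values were seen. *Vsir* and *Ly6g* were not found by symbol.

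Alternatives were a pseudocount of 0.1, no filter except a value above 0, quantile normalization, array weights, a block for the replicate number, and leaving out each library of the groups compared. Tables and figures were made with Python 3.11.15, numpy 2.4.6, pandas 2.3.3 and matplotlib 3.10.9.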

Additional observations from a re-analysis of the deposited data

Results flagged for a closer look

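In *Klf10* and *Foxo3*, every library of a genotype moved one way with IL-33 and every library of the other genotype the opposite way. The share of all tested genes with this pattern was not counted, so how unusual it is cannot be said. *Klf10* was lower under IL-33 in all WT and higher in all 6DKO libraries, with an interaction of 1.97 on the log2 scale (SE 0.38, adjusted p = 0.219, limma). *Foxo3* was higher under IL-33 in all WT and lower in all 6DKO libraries, with an interaction of −3.05 (SE 0.67, adjusted p = 0.314). Neither interaction passed the test over all genes in the fit or in any of 17 alternatives (adjusted p 0.103 to 0.714 for *Klf10* and 0.0857 to 0.903 for *Foxo3*). The interaction of *Foxo3* ranged from −5.40, with a pseudocount of 0.1, to −2.66, with quantile normalization.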

How the results depend on the processing

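The tests were repeated with a pseudocount of 0.1, no filter, quantile normalization, array weights, the replicate block, each library of the groups compared left out, and, chosen after seeing the data, only the groups compared. For the 10 genes, these counts cover 26 results, the IL-33 changes in each genotype and the genes named by rule in the other comparisons. Of their 322 recomputed log2 fold changes, 285 kept direction and side of the threshold, 22 lost the call, 11 gained one and 4 turned. Of 408 for other named genes, 302 kept both and 106 lost the call. *Klf3* kept its calls in all 12 alternatives in each genotype.

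In WT, 486 genes passed with IL-33 (202 to 600 with a library left out), and 3 of the 10 genes (1 to 4), or 1 with only the groups compared. In 6DKO, 324 genes passed (122 to 476), and 1 of the 10 (1 to 3), or 2 with a pseudocount of 0.1, no filter or quantile normalization. Between genotypes under PBS, 66 genes passed (78 to 213 with a PBS library left out), 33 with no filter, 36 with quantile normalization, 1 with array weights, 15 with the replicate block and 1 with only the groups compared. Of the 10, 1 passed (1 to 2 with a PBS library left out, 0 with an IL-33 library left out), and 0 in each of these and with a pseudocount of 0.1. Under IL-33, 1 gene passed (0 to 3), 2 with a pseudocount of 0.1, 0 with quantile normalization, 55 with array weights and 0 with only the groups compared. For the interaction, 2 genes passed (0 to 25), 5 with a pseudocount of 0.1 and 1 with the replicate block. The causes were not tested.

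The log2 fold change of *Foxo1* in WT ranged from −0.96 to 0.0537 with a library left out, and turned without WT PBS replicate 2. In 6DKO, that of *Klf6* ranged from −0.0910 to 0.11 and turned without 6DKO PBS replicate 2 or 6DKO IL-33 replicate 1, and that of *Klf7* from −0.11 to 2.69 and turned without 6DKO PBS replicate 1. Relative depth was 0.531 to 0.717 in the PBS libraries and 0.695 to 1 in the others, and its part in the values listed at 0 was not tested. For pairing, libraries of the same replicate number had correlations of their deviations between −0.0468 and 0.0448, so the numbers were not taken as a block in the tests reported.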
